A study of Mus musculus with 23 samples.

Results

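The Wnt pathway genes described here were 46 ligands, receptors, inhibitors and effectors, taken by gene symbol from the 23512 rows of a read count table of embryonic mouse hearts. They were 8 Wnt ligands, 3 R-spondins, 10 Frizzled receptors, 2 LRP co-receptors, 10 secreted inhibitors, 3 Dishevelled genes, 4 genes of beta-catenin and its destruction complex, 2 Nkd feedback inhibitors and 4 TCF/LEF transcription factors. All 46 had a row in the table. The filter on low counts kept 44 of them among 13941 tested genes, and left out the ligand gene Wnt6 and the inhibitor gene Sfrp4.

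The libraries came from hearts at embryonic day 13.5, labelled C57BL/6, in a series on atrioventricular canal defects of hearts that lack G protein-coupled receptor kinases (GRKs). The 7 triple-knockout libraries had Nkx2.5Cre with GRK2 fl/fl and GRK5 fl/fl, on a GRK6 KO/KO background. The 8 haploinsufficient libraries also had Nkx2.5Cre, GRK5 fl/fl and GRK6 KO/KO, and differed from the triple knockout in the labels by GRK2 fl/wt alone. The 8 wild-type libraries had wild-type alleles of all 3 kinases and no Cre. Nkx2.5Cre acts in cardiac progenitors and their descendants, so the floxed alleles are deleted in that lineage, whereas the GRK6 KO/KO alleles are in every cell. Both GRK groups carry Cre and the wild type does not, so an effect of the driver cannot be told apart from one of the kinases. The labels do not say whether each library was a separate embryo, so p-values measure the spread between these libraries, which may be technical.

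Total counts ran from 6657734 to 13864731 in triple-knockout libraries, from 1757257 to 11025358 in haploinsufficient libraries and from 3838166 to 14050559 in wild-type libraries. In CPM, the usual read count scaled to library size, Adrbk1, the gene of GRK2, averaged 34.4 ± 6.62 in the triple knockout, 42.5 ± 12.1 in the haploinsufficient group and 54.4 ± 4.25 in wild type (SD, n = 7, 8 and 8, as for all such values). Grk5 averaged 14.2 ± 3.35, 13.4 ± 2.24 and 23.99 ± 2.50 CPM in the same order, and Grk6 14.98 ± 3.43, 15.8 ± 4.39 and 30.8 ± 3.23 CPM. The values of the kinase genes and of Nkx2-5 sum all rows of a gene, which the authors' gene models list by single exons. Deleted and remaining exons are thus counted together, and these levels do not measure intact transcript. Reads of Cre were at 8.23 to 24.95 CPM in the triple knockout, 9.90 to 23.97 CPM in the haploinsufficient group and 0 to 0.859 CPM in wild type. Nkx2-5, the cardiac transcription factor gene the driver is named for, averaged 49.8 ± 13.0 CPM in the triple knockout, 70.3 ± 16.2 CPM in the haploinsufficient group and 98.5 ± 10.4 CPM in wild type, and its part in the results was not tested. The cardiomyocyte gene Tnnt2 was at 1816 CPM or more in every library. Markers of lung, foregut, liver and thymus, which lie beside the heart, set some libraries apart. Their mean log2 score, relative to the wild-type mean, was above 1.5 in triple-knockout replicates 1, 2, 3 and 7, in haploinsufficient replicates 1, 4, 7 and 8, and in wild-type replicate 4. For calls among the Wnt pathway genes, and for some of the genes whose values lie highest in these libraries, the values without them are given below. That leaves 3 triple-knockout, 4 haploinsufficient and 7 wild-type libraries, and the 3 are all from the higher run of library numbers in the labels.

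Wnt proteins are secreted, lipid-modified ligands that bind Frizzled receptors. With LRP5 or LRP6 as co-receptor, the signal passes through Dishevelled, blocks the destruction complex of Axin, APC and kinases, and lets beta-catenin enter the nucleus to act with TCF/LEF factors. Other Wnt ligands, WNT5A and WNT11 among them, act mainly without beta-catenin on cell polarity and movement. R-spondins raise the level of Frizzled and LRP at the cell surface, whereas DKK, SFRP, WIF1 and NOTUM proteins hold the signal back outside the cell. In the embryonic heart the pathway takes part in progenitor expansion, outflow tract formation and the growth of the endocardial cushions, from which the valves and the atrioventricular septum form. GRK5 and GRK6 have been described as kinases of LRP6.

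Several genes of the pathway, Axin2, Nkd1, Lef1, Tcf7, Notum and Dkk1 among them, are also textbook targets of beta-catenin, so the promoters were searched for the letters that TCF/LEF factors bind. RefSeq promoter windows of 250 bases before the start (build GRCm38.p6, 1 start for each gene, the farthest upstream where there were several) were found for 31 of the 46 genes. The letters searched, on either strand, were CTTTG followed by AA, AT, TA or TT, which exclude each other at any 1 position. Of the 31 windows, 3 held at least 1 match, which is 9.68%, beside 4029 of all 27018 windows of the same length, which is 14.9%. The 3 windows with a match follow, with that of Axin2, the most used readout of beta-catenin activity, for comparison. They are printed 5′ to 3′ on the strand of the gene, and the capitals mark the matches.
Axin2, chr11:108920099-108920348, plus strand: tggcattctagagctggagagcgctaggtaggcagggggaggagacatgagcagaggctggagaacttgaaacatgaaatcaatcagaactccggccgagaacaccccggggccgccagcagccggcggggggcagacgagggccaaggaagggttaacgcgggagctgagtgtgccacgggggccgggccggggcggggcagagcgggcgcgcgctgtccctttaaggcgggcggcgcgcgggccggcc
Wnt11, chr7:98834862-98835111, plus strand: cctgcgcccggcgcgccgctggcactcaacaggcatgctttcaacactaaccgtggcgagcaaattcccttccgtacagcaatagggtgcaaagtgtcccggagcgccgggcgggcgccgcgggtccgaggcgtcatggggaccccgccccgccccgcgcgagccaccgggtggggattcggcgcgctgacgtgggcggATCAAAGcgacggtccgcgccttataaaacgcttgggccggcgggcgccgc
Fzd7, chr1:59481897-59482146, plus strand: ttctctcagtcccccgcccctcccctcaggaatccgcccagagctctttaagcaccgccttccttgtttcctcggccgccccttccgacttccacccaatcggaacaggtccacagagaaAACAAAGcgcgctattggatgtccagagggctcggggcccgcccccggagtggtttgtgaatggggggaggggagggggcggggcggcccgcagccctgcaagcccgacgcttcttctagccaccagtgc
Dkk1, chr19:30549497-30549746, minus strand: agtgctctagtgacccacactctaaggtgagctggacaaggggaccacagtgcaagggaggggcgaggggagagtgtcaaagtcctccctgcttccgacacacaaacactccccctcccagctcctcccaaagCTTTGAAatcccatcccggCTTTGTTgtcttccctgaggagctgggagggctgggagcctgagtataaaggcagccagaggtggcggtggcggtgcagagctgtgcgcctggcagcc
The match of Wnt11 began 51 bases before the start, and that of Fzd7 130 bases before it, both on the strand opposite to the gene. In Dkk1 the matches on the gene's own strand began 117 and 98 bases before the start. The window of Axin2 held none of these letters. For Wnt11 the RefSeq start lies upstream of the start in the authors' gene model, while for the other 3 genes the starts are the same. A match is a description of letters, not evidence of a bound site.

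Levels are compared between genes as CPM per kilobase of exon, with exon lengths from the authors' gene models. On this scale Ctnnb1, which encodes beta-catenin, was the highest of the 46, at 256 ± 9.96 in the triple knockout, 246 ± 25.8 in the haploinsufficient group and 241 ± 14.4 in wild type. By their mean over all 23 libraries, 11 further genes were between 10 and 100, 31 were between 1 and 10, and 3 were under 1. The 11 were Sfrp1, Sfrp2, Dkk3, Fzd1, Fzd2, Lrp5, Lrp6, Dvl1, Dvl2, Dvl3 and Axin1, and those under 1 were Wnt6, Dkk1 and Sfrp4.

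**Figure D1:**
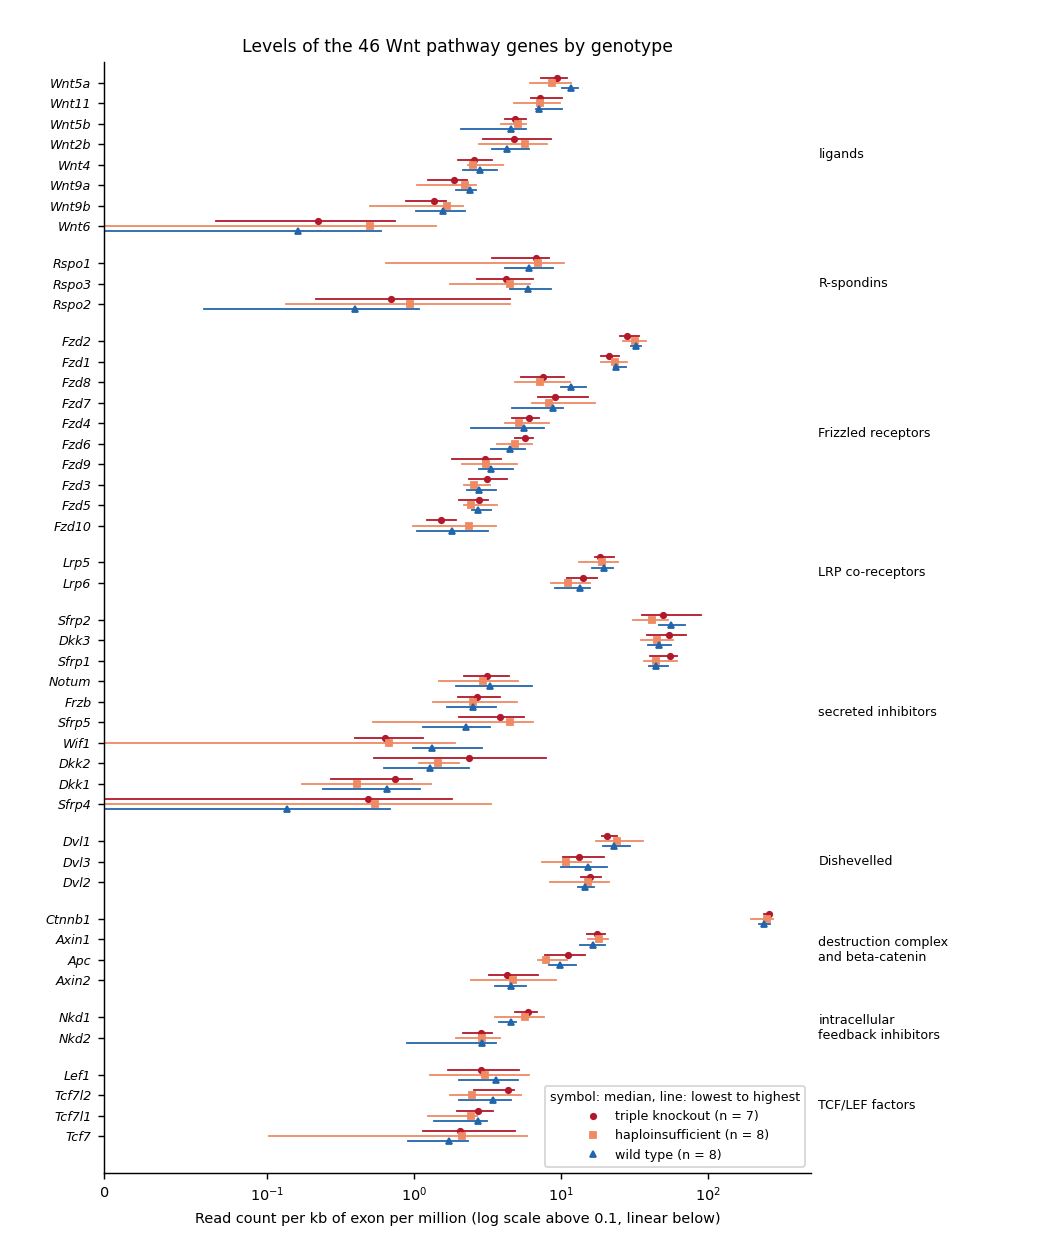
Level of each of the 46 Wnt pathway genes, as CPM per kilobase of exon on a log axis that is linear below 0.1. Symbols are medians and lines run from the lowest to the highest library of the 7 triple-knockout, 8 haploinsufficient and 8 wild-type libraries. The lines of the groups overlap, in part or in full, for every gene.

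The ligands, receptors and secreted inhibitors each had leading members. Wnt5a made up 28.4% ± 3.96, 27.0% ± 4.62 and 33.1% ± 2.89 of the summed ligand level in the triple knockout, the haploinsufficient group and wild type, and Wnt11 a further 22.9% ± 2.51, 21.7% ± 3.66 and 21.9% ± 2.14. Both encode ligands of the branch that does not need beta-catenin. Among the receptors, Fzd2 held 32.1% ± 1.65, 34.3% ± 2.82 and 33.2% ± 1.48 of the Frizzled sum, in the same order of groups, and Fzd1 held 23.6% ± 0.819, 24.5% ± 2.19 and 24.7% ± 1.25. The inhibitor sum was made up mainly of Sfrp1, Sfrp2 and Dkk3, a divergent DKK family gene. Sfrp1 held 31.1% ± 2.89, 31.8% ± 3.25 and 28.4% ± 2.61 of it in the same order, and Sfrp2 29.7% ± 7.54, 28.2% ± 4.46 and 35.4% ± 3.71. Rspo1 and Rspo3 were the main R-spondins, with Rspo2 at 10.1% ± 9.08 of their sum in the triple knockout, 10.96% ± 9.55 in the haploinsufficient group and 3.06% ± 2.31 in wild type. The summed Frizzled level was 89.5 ± 8.51, 93.7 ± 8.58 and 97.7 ± 3.53 CPM per kilobase in the same order, and the summed ligand level 32.5 ± 3.29, 33.5 ± 3.23 and 34.7 ± 2.64. The sums of each GRK group differ from wild type by less than the SD of that group, which is a spread of single libraries. The Frizzled sums of both GRK groups lie below wild type by more than the wild-type SD of 3.53. A difference in the sums was not tested.

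Of the 44 tested genes, 0 passed the edgeR test in the triple knockout against wild type, where a gene was called if its Benjamini-Hochberg adjusted p over all 13941 genes was under 0.05. In this comparison 1.18% of all genes were called, 0.488% higher and 0.696% lower. At an unadjusted p under 0.05 there were 11 of the 44, a larger share than the 10.8% of all genes. The members were chosen with earlier results of these data known, so this share is no test of the set. DESeq2 called 2 of the 44 (Fzd8 and Nkd1) and limma on the deposited FPKM values called 0. In the haploinsufficient group against wild type, 1 of the 44 was called, Fzd8, which fell. That is 2.27% of the members, beside 2.24% of all genes called in either direction, 0.861% higher and 1.38% lower, so the share is near the background. Between the GRK groups 0 of the 44 were called by edgeR, DESeq2 or limma, beside 0.395% of all genes called, 0.0789% higher and 0.316% lower. At an unadjusted p under 0.05 there were 9 of the 44 in the haploinsufficient group over wild type, beside 17.2% of all genes, and 7 of the 44 between the GRK groups, beside 15.3% of all genes. The background itself moves with single libraries. With each left out in turn, the genes called ran from 116 to 184 in the triple knockout over wild type, from 152 to 614 in the haploinsufficient group over wild type and from 10 to 420 between the GRK groups, and the highest count of the last 2 came without haploinsufficient replicate 3. The median log2 fold change of the 44 was 0.02, -0.02 and 0.01 in these comparisons, and that of all genes 0.01, 0.01 and 0.00. It was positive for 22, 19 and 22 of the 44. Absolute log2 fold changes were under 0.5 for 37, 39 and 42 of the 44, with a median standard error of 0.17 in each comparison. For 0 of the 44 did the libraries of the groups compared fail to overlap, which held for 0.933%, 0.452% and 0.0933% of all genes.

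**Figure D2:**
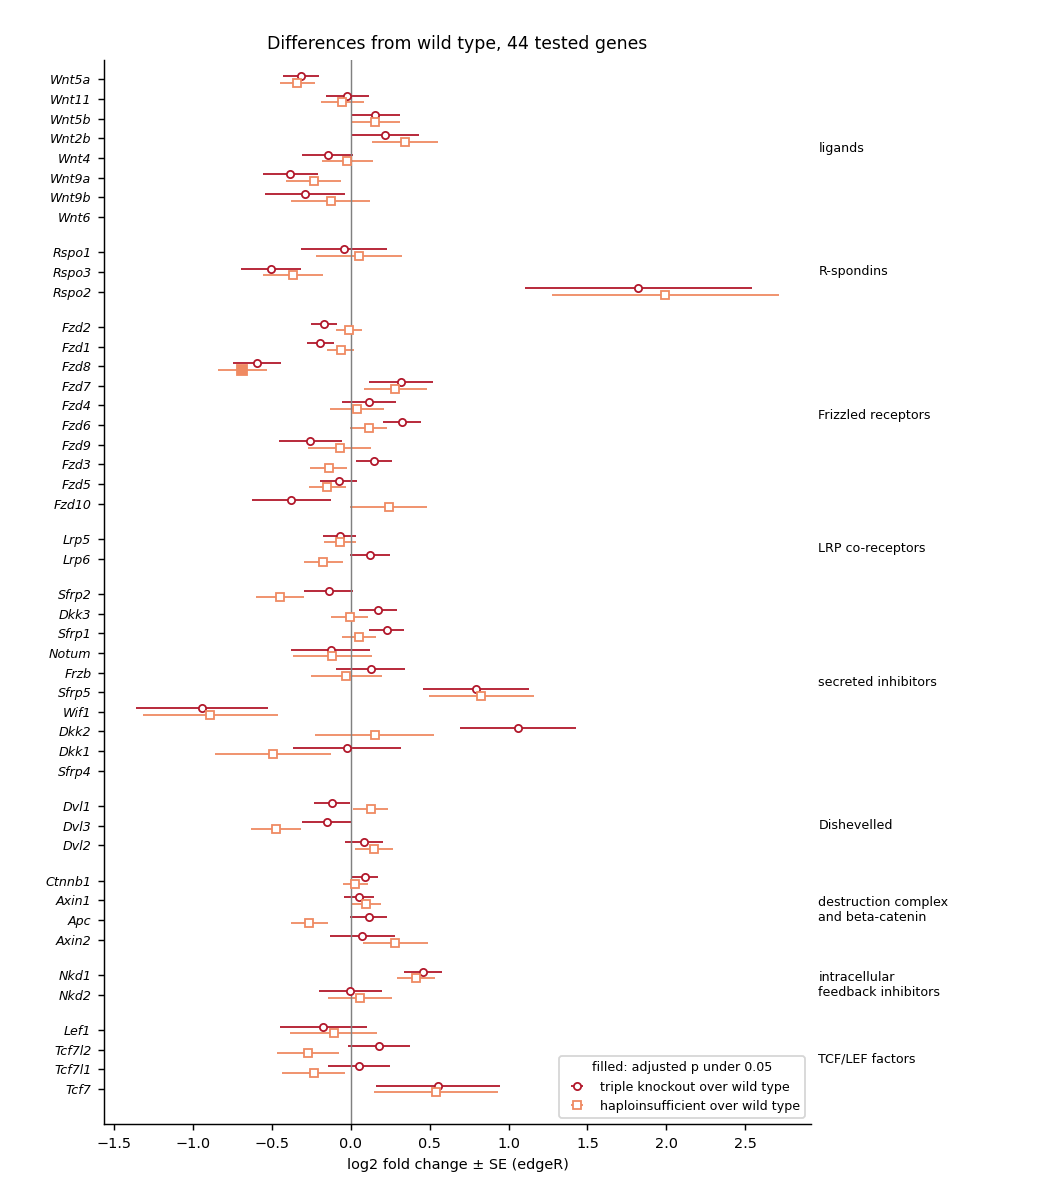
log2 fold change with its standard error (edgeR) of the 44 tested Wnt pathway genes, for the triple knockout over wild type and the haploinsufficient group over wild type. Fzd8 in the haploinsufficient group is the single filled symbol, which marks an adjusted p under 0.05, and Rspo2 has the highest values with the widest errors.

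Both comparisons with wild type use the same 8 wild-type libraries, so likeness between them is not independent evidence. Reads come from whole hearts, in which fewer cells of a type and less RNA per cell cannot be told apart. The libraries do not mark strand, so reads from a gene and from any transcript that overlaps it on the other strand are counted together.

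Among the ligands, 0 of the 7 tested genes were called in any of the 3 comparisons. Wnt5a had 31.7, 41.0 and 47.6 CPM as lowest, median and highest in the triple knockout, 26.6, 38.0 and 51.2 CPM in the haploinsufficient group and 44.2, 50.6 and 56.3 CPM in wild type. The groups overlap, with the wild-type libraries in the upper part of the range. The log2 fold change against wild type was -0.31 ± 0.11 (SE) in the triple knockout (edgeR adjusted p = 0.234) and -0.34 ± 0.11 in the haploinsufficient group (edgeR adjusted p = 0.112). Without haploinsufficient replicate 3 the value of that group was -0.41 and passed (edgeR adjusted p = 0.0324). With the libraries of high neighbouring-tissue score left out the value of the haploinsufficient group was -0.15 ± 0.11 (edgeR adjusted p = 0.574). Wnt9a, a ligand gene known from the heart valves of chick embryos, averaged 6.00 ± 1.28 CPM in the triple knockout, 6.56 ± 2.17 CPM in the haploinsufficient group and 7.73 ± 0.868 CPM in wild type (triple knockout over wild type -0.38 ± 0.17, edgeR adjusted p = 0.401). Wnt11, a ligand of outflow tract development, averaged 20.9 ± 3.67, 20.3 ± 4.33 and 21.3 ± 3.20 CPM, with log2 fold changes of -0.02 ± 0.14 and -0.05 ± 0.14 against wild type. The other tested ligands, Wnt2b, Wnt4, Wnt5b and Wnt9b, had log2 fold changes between -0.29 and 0.35 against wild type. Wnt6 was near the limit of detection, with 38 reads in all triple-knockout libraries, 44 in all haploinsufficient libraries and 23 in all wild-type libraries. It had no read in haploinsufficient replicate 1 and in wild-type replicates 4 and 7, where 0 counts allow up to 0.744, 0.771 and 0.615 CPM, taking 3 counts as the limit for counting error.

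The R-spondins gave 0 calls, although Rspo2 had the largest fold changes of the 44 genes against wild type. Rspo2 had 0.717, 2.33 and 14.9 CPM (lowest, median, highest) in the triple knockout, 0.445, 3.11 and 14.9 CPM in the haploinsufficient group and 0.205, 1.32 and 3.60 CPM in wild type. Triple-knockout replicates 1, 3 and 7 and haploinsufficient replicates 1, 4, 7 and 8 lay above the wild-type range, and the other libraries overlap. Rspo2 differed by 1.82 ± 0.72 in the triple knockout over wild type (edgeR adjusted p = 0.294) and 1.99 ± 0.72 in the haploinsufficient group (edgeR adjusted p = 0.147). The 6 libraries with the highest Rspo2 are the 6 with the highest score of neighbouring tissue. Without the libraries above a score of 1.5 the fold changes turned to -0.44 ± 0.72 and -0.48 ± 0.74, and with the score as a term to -0.67 and -1.07. Rspo3, a further activator of the receptors, averaged 9.83 ± 2.91 CPM in the triple knockout, 10.8 ± 3.20 CPM in the haploinsufficient group and 14.2 ± 3.16 CPM in wild type. Its log2 fold change was -0.50 ± 0.19 in the triple knockout (edgeR adjusted p = 0.266) and -0.37 ± 0.19 in the haploinsufficient group (edgeR adjusted p = 0.319). Rspo1 averaged 11.5 ± 3.52, 11.8 ± 6.27 and 11.7 ± 2.81 CPM in the same order of groups.

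The Frizzled receptors held the single call. Fzd8, on chromosome 18 (positions 9212856 to 9216201, build mm10, plus strand), had 16.1, 23.96 and 38.1 CPM as lowest, median and highest of the haploinsufficient libraries and 33.0, 38.7 and 49.4 CPM of the wild-type libraries. In the haploinsufficient group 7 of 8 libraries lay below the lowest wild-type library, and replicate 3 lay among the wild type. Fzd8 fell in the haploinsufficient group to 0.622 of the wild-type level, a log2 fold change of -0.69 ± 0.15 (edgeR adjusted p = 0.0131). The read counts behind these values ran from 41 in haploinsufficient replicate 2 to 498 in wild-type replicate 8. The call held with each library left out in turn (edgeR adjusted p = 0.00354 to 0.0380) and without the libraries of high neighbouring-tissue score (-0.75 ± 0.17, edgeR adjusted p = 0.0400). It was lost with that score as a term (-0.69 ± 0.18, edgeR adjusted p = 0.0568) and within ID set A and ID set B alone, at -0.64 and -0.73 (edgeR adjusted p = 0.462 and 0.0756), where ID set means the lower or higher run of library numbers in the labels.

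In the triple knockout Fzd8 had 34.6, 31.3, 17.8, 25.01, 33.6, 19.3 and 19.6 CPM in the 7 libraries. Of these, 5 lay below the lowest wild-type library and the other 2 within the wild-type range. The log2 fold change over wild type was -0.59 ± 0.15, which missed the threshold (edgeR adjusted p = 0.0507). It passed in DESeq2 (adjusted p = 0.0163), with upper quartile scaling, with no filter on low counts, with the compared groups alone, and without haploinsufficient replicate 3, 4, 6 or 8 or triple-knockout replicate 1 or 5 (edgeR adjusted p = 0.0196 to 0.148 over the 23 libraries left out in turn). It was -0.43 ± 0.19 without the libraries of high neighbouring-tissue score (edgeR adjusted p = 0.534), a fit that keeps 3 triple-knockout libraries, all of ID set B. The direct comparison of the triple knockout with the haploinsufficient group gave 0.09 ± 0.16 (edgeR adjusted p = 0.830), so a difference in Fzd8 between the GRK groups was not shown. Among markers of endocardium and endothelium, 3 of 9 (Cdh5, Npr3 and Tek) fell in the haploinsufficient group and 1 of 9 (Npr3) in the triple knockout. The summed level of the 9 was 1028 to 1292 CPM in the triple knockout, 947 to 1198 CPM in the haploinsufficient group and 1054 to 1406 CPM in wild type, and their part in the Fzd8 result was not tested.

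The other 9 Frizzled genes did not pass in any comparison. Fzd6, whose protein acts in planar cell polarity, averaged 23.8 ± 2.12 CPM in the triple knockout, 20.8 ± 3.57 CPM in the haploinsufficient group and 19.02 ± 3.14 CPM in wild type, with a log2 fold change of 0.33 ± 0.12 in the triple knockout over wild type (edgeR adjusted p = 0.241). Fzd1 averaged 92.4 ± 8.79, 101 ± 14.2 and 106 ± 7.25 CPM in the same order (triple knockout over wild type -0.19 ± 0.09, edgeR adjusted p = 0.390). Fzd2, the highest receptor gene, averaged 104 ± 10.2, 117 ± 14.8 and 118 ± 7.40 CPM. The groups overlap for each of these genes. For Fzd1 the highest triple-knockout library had 109 CPM and the next 96.6 CPM, against 99.2 CPM in the lowest wild-type library. For Fzd2 the triple-knockout median was 102 CPM, against 108 CPM in the lowest wild-type library. Fzd7, a receptor gene of many stem and progenitor cells, reached 73.2 and 69.6 CPM in triple-knockout replicates 1 and 7 and 81.7 and 60.5 CPM in haploinsufficient replicates 7 and 8, against 22.3 to 49.1 CPM in wild type. All 4 of those libraries have a high score of neighbouring tissue, and without the high-score libraries the log2 fold changes were -0.09 ± 0.18 and -0.06 ± 0.16, beside 0.32 ± 0.20 and 0.28 ± 0.20 with all libraries. In the triple knockout against the haploinsufficient group, Fzd10 differed by -0.62 ± 0.25 (edgeR adjusted p = 0.246) and Fzd3 by 0.29 ± 0.12 (edgeR adjusted p = 0.247).

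**Figure D3:**
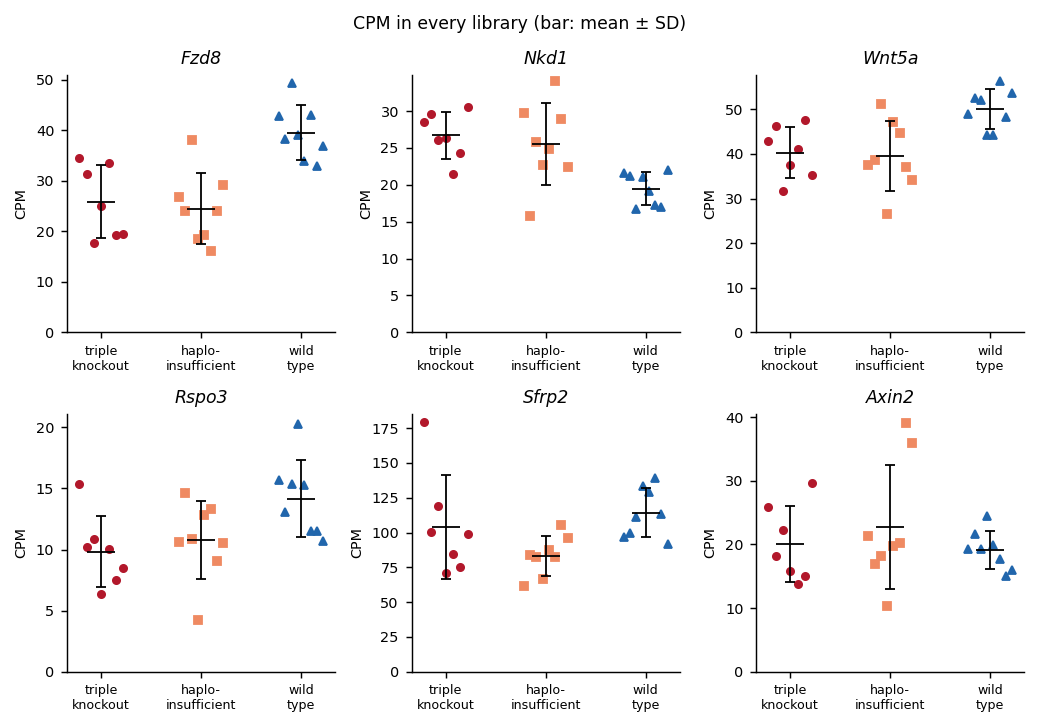
CPM of Fzd8, Nkd1, Wnt5a, Rspo3, Sfrp2 and Axin2 in every library, with mean and SD by group (7 triple-knockout, 8 haploinsufficient and 8 wild-type libraries). Haploinsufficient Fzd8 lies below 33.0 CPM, the lowest wild-type value, in 7 of 8 libraries, and the groups overlap in every panel.

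The co-receptor genes did not pass in any comparison. Lrp5 averaged 97.2 ± 10.4 CPM in the triple knockout, 96.9 ± 17.4 CPM in the haploinsufficient group and 102 ± 11.1 CPM in wild type, a log2 fold change of -0.07 ± 0.10 in both GRK groups. Lrp6, whose protein has been described as a substrate of GRKs, averaged 134 ± 24.1 CPM in the triple knockout, 109 ± 23.5 CPM in the haploinsufficient group and 123 ± 17.3 CPM in wild type. The triple knockout differed from the haploinsufficient group by 0.29 ± 0.13 (edgeR adjusted p = 0.274), and by -0.24 without the libraries of high neighbouring-tissue score. These are RNA levels and carry no measure of phosphorylation.

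Of the secreted inhibitors, 9 were tested and 0 were called in any comparison. Sfrp2, a Wnt-binding decoy, had 70.6, 98.7 and 179 CPM (lowest, median, highest) in the triple knockout, 61.2, 83.2 and 105 CPM in the haploinsufficient group and 91.7, 112 and 139 CPM in wild type. Most haploinsufficient libraries lie below the wild type and 2 of 8 lie within it. Sfrp2 differed from wild type by -0.45 ± 0.15 in the haploinsufficient group (edgeR adjusted p = 0.119) and -0.14 ± 0.15 in the triple knockout (edgeR adjusted p = 0.830). Without the libraries of high neighbouring-tissue score, which leaves out the highest triple-knockout library, the triple-knockout value was -0.60 ± 0.13 and passed (edgeR adjusted p = 0.0283). That fit keeps 3 triple-knockout libraries, all of ID set B. With the score as a term the triple-knockout value was -0.33 ± 0.16 (edgeR adjusted p = 0.426). Within ID set A alone the triple knockout was above the haploinsufficient group by 0.86 ± 0.19 (edgeR adjusted p = 0.0350), beside 0.31 ± 0.16 over all libraries (edgeR adjusted p = 0.338). The haploinsufficient value passed without triple-knockout replicate 1 (-0.46, edgeR adjusted p = 0.0439), with the compared groups alone (-0.46, edgeR adjusted p = 0.0255) and with the score of neighbouring tissue as a term (-0.65 ± 0.16, edgeR adjusted p = 0.0427). Sfrp1, a further decoy gene, averaged 234 ± 28.8 CPM in the triple knockout, 207 ± 41.6 CPM in the haploinsufficient group and 199.8 ± 23.8 CPM in wild type, a log2 fold change of 0.23 ± 0.11 in the triple knockout (edgeR adjusted p = 0.475). With the score as a term this was 0.41 ± 0.11 and passed (edgeR adjusted p = 0.0416), and without the high-score libraries it was 0.15 ± 0.10 (edgeR adjusted p = 0.8001). Sfrp5, a decoy gene of foregut and inflow tissue, averaged 7.28 ± 2.72, 7.35 ± 3.93 and 4.21 ± 1.44 CPM in the same order. Against wild type it differed by 0.79 ± 0.33 (edgeR adjusted p = 0.342) in the triple knockout and by 0.83 ± 0.33 (edgeR adjusted p = 0.194) in the haploinsufficient group.

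Wif1, which encodes a Wnt-binding inhibitor, was low in all hearts. It had 0.883, 1.41 and 2.55 CPM (lowest, median, highest) in the triple knockout, 0, 1.496 and 4.22 CPM in the haploinsufficient group and 2.21, 2.95 and 6.43 CPM in wild type. The count of 0 in haploinsufficient replicate 4 allows up to 0.972 CPM. Wif1 differed from wild type by -0.94 ± 0.42 in the triple knockout (edgeR adjusted p = 0.384) and -0.89 ± 0.43 in the haploinsufficient group (edgeR adjusted p = 0.282). With the score of neighbouring tissue as a term the values were -1.78 ± 0.37 and -2.03 ± 0.43 and passed (edgeR adjusted p = 0.00993 and 0.0111), whereas without the high-score libraries they were -1.30 ± 0.48 and -1.32 ± 0.46 and did not (edgeR adjusted p = 0.363 and 0.192). The highest Wif1 library of the wild type, replicate 4, was also its library with the highest score. Dkk2, an LRP-binding inhibitor, had 29.1 and 17.2 CPM in triple-knockout replicates 1 and 7, with 4.01 to 7.44 CPM in the haploinsufficient group and 2.31 to 8.74 CPM in wild type. Its log2 fold change of 1.06 ± 0.37 in the triple knockout over wild type (edgeR adjusted p = 0.208) became -0.48 ± 0.39 without the libraries of high neighbouring-tissue score. The haploinsufficient libraries with the highest such score, replicates 1, 7 and 8, had Dkk2 within the wild-type range. A score of neural crest, neuron and glia markers, made in the same way from 6 of 8 markers, was 2.28 and 1.45 in triple-knockout replicates 1 and 7, with 0.06 to 1.31 in the other triple-knockout libraries, -0.16 to 0.89 in the haploinsufficient group and -0.64 to 0.67 in wild type. The summed level of all 8 ran from 42.7 to 133 CPM in the triple knockout, from 34.5 to 55.9 CPM in the haploinsufficient group and from 30.7 to 42.9 CPM in wild type. The part of these cells in the Dkk2 values was not tested. Dkk1, the founding LRP inhibitor, was at 1.48 ± 0.615, 1.27 ± 0.925 and 1.55 ± 0.616 CPM in the triple knockout, the haploinsufficient group and wild type. Sfrp4 had 76 reads in all triple-knockout libraries, 50 in all haploinsufficient libraries and 25 in all wild-type libraries. Dkk3, Frzb and Notum had log2 fold changes between -0.13 and 0.17 against wild type.

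**Figure D4:**
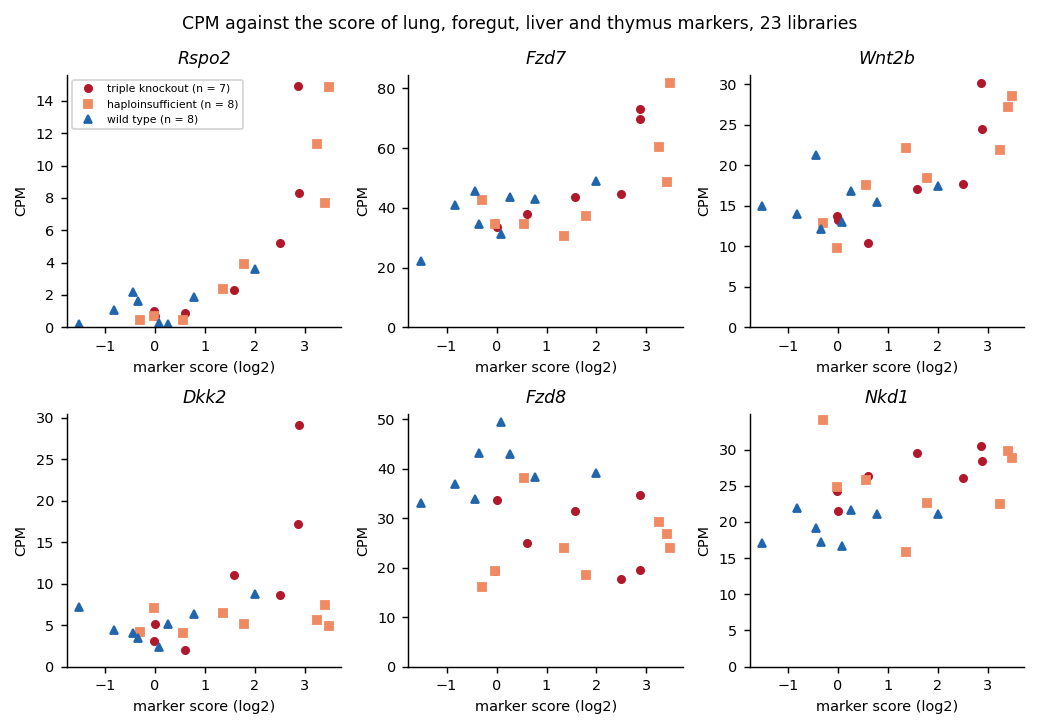
CPM of Rspo2, Fzd7, Wnt2b, Dkk2, Fzd8 and Nkd1 in each of the 23 libraries against the mean log2 score of markers of lung, foregut, liver and thymus (wild-type mean at 0). Rspo2 is above 4 CPM only in libraries with a score above 2, while Fzd8 values below 33.0 CPM occur at scores from -0.30 to 3.48.

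The score drawn in that plot averaged 1.48 ± 1.30 in the triple knockout, 1.69 ± 1.55 in the haploinsufficient group and 0.00 ± 1.07 in wild type. It rests on the 12 of 16 markers that passed the filter, of which 0 were called in the triple knockout and 3 rose in the haploinsufficient group (Foxf1, Cldn6 and Fendrr). The summed level of all 16 ran from 14.1 to 187 CPM in the triple knockout, from 20.01 to 304 CPM in the haploinsufficient group and from 7.38 to 58.6 CPM in wild type. The log2 fold change against wild type was positive for 10 of the 12 in the triple knockout and 11 in the haploinsufficient group. The lung epithelial marker Sftpc was at 0 in 2 of 7, 3 of 8 and 5 of 8 libraries of these groups, and Foxa2, a marker of foregut endoderm, in 1, 4 and 5. Of the liver markers, Alb averaged 6.60, 10.6 and 4.49 CPM in the same order, and Afp 1.83, 2.25 and 4.62 CPM. The thymus marker Foxn1 was near 0, at 0.320, 0.0113 and 0.0737 CPM. Besides Rspo2 and Dkk2, Wnt2b reached its highest values in libraries with a high score, at 30.2 CPM in triple-knockout replicate 7 and 28.5 CPM in haploinsufficient replicate 7, against at most 21.3 CPM in wild type. Axin2 did so too, at 29.6 CPM in triple-knockout replicate 7 and 39.1 CPM in haploinsufficient replicate 7, against at most 24.4 CPM in wild type. Without the high-score libraries the log2 fold changes of Wnt2b against wild type were -0.21 ± 0.23 in the triple knockout and -0.07 ± 0.21 in the haploinsufficient group, beside 0.22 and 0.35 with all libraries. Those of Axin2 were -0.27 ± 0.16 and 0.04 ± 0.14, beside 0.07 and 0.28.

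The 3 Dishevelled genes, which relay the signal from the receptors, were not called. Dvl3 averaged 40.0 ± 8.76 CPM in the triple knockout, 32.6 ± 7.03 CPM in the haploinsufficient group and 44.8 ± 12.5 CPM in wild type, and wild-type libraries alone spread from 29.3 to 60.1 CPM. The log2 fold change in the haploinsufficient group was -0.47 ± 0.16 (edgeR adjusted p = 0.118), and passed without wild-type replicate 3 (-0.55, edgeR adjusted p = 0.0443) or without haploinsufficient replicate 3 (-0.56, edgeR adjusted p = 0.0450). Dvl1, the highest of the 3 per length, averaged 70.2 ± 6.47, 83.7 ± 18.6 and 76.1 ± 10.4 CPM in the triple knockout, the haploinsufficient group and wild type. The triple knockout differed from the haploinsufficient group by -0.25 ± 0.11 (edgeR adjusted p = 0.304). Dvl2 had log2 fold changes of 0.08 ± 0.12 and 0.15 ± 0.12 against wild type.

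Of beta-catenin and its destruction complex, 0 of 4 genes were called. Ctnnb1 averaged 928 ± 36.1 CPM in the triple knockout, 889.7 ± 93.3 CPM in the haploinsufficient group and 872 ± 52.1 CPM in wild type, with log2 fold changes of 0.09 ± 0.08 and 0.03 ± 0.08. Axin1, the scaffold of the complex, had 0.05 ± 0.10 and 0.10 ± 0.09. Apc, a further scaffold, averaged 133 ± 28.2 CPM in the triple knockout, 103 ± 15.9 CPM in the haploinsufficient group and 123 ± 20.8 CPM in wild type. The triple knockout differed from the haploinsufficient group by 0.38 ± 0.12, which had the smallest p of the 44 genes in that comparison and missed the threshold (edgeR adjusted p = 0.141). It passed without haploinsufficient replicate 3, the highest of its group at 137 CPM (0.43, edgeR adjusted p = 0.0464). Axin2, an Axin gene that beta-catenin itself induces, had 13.8, 18.1 and 29.6 CPM (lowest, median, highest) in the triple knockout, 10.4, 19.97 and 39.1 CPM in the haploinsufficient group and 14.97, 19.2 and 24.4 CPM in wild type. The medians lie close together and the GRK groups reach both lower and higher than wild type. Against wild type Axin2 differed by 0.07 ± 0.21 and 0.28 ± 0.21 (edgeR adjusted p = 0.943 and 0.508).

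Of the intracellular feedback inhibitors, which bind Dishevelled, Nkd1 came nearest to a call after Fzd8. It had 28.5, 29.6, 26.1, 26.4, 21.5, 24.3 and 30.5 CPM in the triple-knockout libraries, 15.8, 25.3 and 34.0 CPM as lowest, median and highest in the haploinsufficient group, and 16.7, 20.1 and 21.97 CPM in wild type. In the triple knockout 6 of 7 libraries lay above the highest wild-type library. The log2 fold change was 0.46 ± 0.12 in the triple knockout (edgeR adjusted p = 0.0595) and 0.41 ± 0.12 in the haploinsufficient group (edgeR adjusted p = 0.0676), and DESeq2 called both (adjusted p = 0.0127 and 0.0222). Without the libraries of high neighbouring-tissue score the triple-knockout value was 0.27 ± 0.18 (edgeR adjusted p = 0.779) and the haploinsufficient value 0.42 ± 0.16 (edgeR adjusted p = 0.228). The triple-knockout value passed without haploinsufficient replicate 2 or 6 or triple-knockout replicate 5 (edgeR adjusted p = 0.0236, 0.0385 and 0.0366). The haploinsufficient value passed without replicate 2 of that group, its lowest library (0.48, edgeR adjusted p = 0.0175). Nkd2 averaged 8.97 ± 1.25, 9.41 ± 2.05 and 8.86 ± 2.89 CPM in the triple knockout, the haploinsufficient group and wild type.

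The 4 TCF/LEF genes, which encode the DNA-binding partners of beta-catenin, were not called. In wild type Lef1, Tcf7l2, Tcf7l1 and Tcf7 averaged 3.54, 3.40, 2.56 and 1.72 CPM per kilobase. Lef1 averaged 11.4 ± 4.52, 11.8 ± 6.33 and 13.1 ± 4.18 CPM in the triple knockout, the haploinsufficient group and wild type. Tcf7l2 averaged 17.6 ± 4.00, 12.9 ± 5.45 and 15.5 ± 3.55 CPM, with a difference of triple knockout over haploinsufficient hearts of 0.45 ± 0.20 (edgeR adjusted p = 0.282), or -0.06 without the libraries of high neighbouring-tissue score. Tcf7 had its highest values, 10.8 and 13.0 CPM, in triple-knockout replicate 7 and haploinsufficient replicate 7, against at most 5.17 CPM in wild type. Its log2 fold changes were 0.55 ± 0.39 and 0.54 ± 0.39 (edgeR adjusted p = 0.679 and 0.508), and -0.12 ± 0.51 and -0.09 ± 0.47 without the high-score libraries.

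The rest of the pathway was read from lists of genes outside the 46. Of 28 genes of non-canonical and planar cell polarity signalling, 1 rose in each GRK group, Celsr1, an atypical cadherin gene of planar polarity. Celsr1 had 115, 118 and 143 CPM (lowest, median, highest) in the triple knockout, 84.2, 134 and 171 CPM in the haploinsufficient group and 70.0, 86.7 and 115 CPM in wild type. Its log2 fold change was 0.47 ± 0.12 in the triple knockout (edgeR adjusted p = 0.0381) and 0.54 ± 0.11 in the haploinsufficient group (edgeR adjusted p = 0.00834). Both calls were lost without the libraries of high neighbouring-tissue score, where the values were 0.49 ± 0.15 and 0.52 ± 0.13 (edgeR adjusted p = 0.178 and 0.0594). Apart from leaving out single libraries there were 13 alternatives, that one included. Of these, 7 lost the triple-knockout call and 4 the haploinsufficient call, with values from 0.37 to 0.54 and from 0.43 to 0.56 over all 13. The triple-knockout call was also lost without triple-knockout replicate 1, 2, 3, 4 or 5, and without wild-type replicate 1, 2, 3, 5, 7 or 8 (edgeR adjusted p = 0.0144 to 0.101 over the 23 libraries left out in turn).

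Of 16 tested genes of ligand secretion, receptor turnover and extracellular modulation, 0 were called in the triple knockout and 1 fell in the haploinsufficient group, the glypican gene Gpc4. It averaged 27.2 ± 8.34 CPM in the triple knockout, 19.1 ± 5.34 CPM in the haploinsufficient group and 33.1 ± 9.19 CPM in wild type (haploinsufficient over wild type -0.81 ± 0.20, edgeR adjusted p = 0.0271). Of 33 tested genes of cytoplasmic and nuclear transduction, 1 fell in the haploinsufficient group, Btrc, whose protein tags beta-catenin for degradation, and 0 were called in the triple knockout. Btrc averaged 40.0 ± 4.41, 34.0 ± 5.14 and 46.1 ± 6.14 CPM (haploinsufficient over wild type -0.44 ± 0.10, edgeR adjusted p = 0.0187). Neither call held without the libraries of high neighbouring-tissue score, at -0.62 ± 0.21 for Gpc4 and -0.31 ± 0.13 for Btrc (edgeR adjusted p = 0.169 and 0.314). Of the 13 alternatives apart from leaving out single libraries, that one included, 4 lost the Gpc4 call and 3 the Btrc call. Gpc4 also lost its call without wild-type replicate 1, 2, 7 or 8 or haploinsufficient replicate 7 or 8, and Btrc without wild-type replicate 8, with values from -0.69 to -0.78 and of -0.41.

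Only 3 of the 11 further Wnt ligand genes passed the filter, and 0 were called. Wnt2 averaged 11.7 ± 11.3 CPM in the triple knockout, 25.5 ± 24.02 CPM in the haploinsufficient group and 7.62 ± 2.77 CPM in wild type, and Wnt7b 8.70 ± 10.8, 16.4 ± 21.6 and 2.28 ± 4.75 CPM. Both are ligand genes of the embryonic lung, and both reached their highest value in replicate 7 of each GRK group, which had a high score of neighbouring tissue. Wnt16 averaged 2.97 ± 0.776, 2.69 ± 1.48 and 5.33 ± 1.49 CPM, which gave -0.86 ± 0.27 and -0.98 ± 0.27 against wild type (edgeR adjusted p = 0.142 and 0.0551). Of 22 tested textbook targets of beta-catenin and TCF, 6 of which are members described above, 0 were called in any of the 3 comparisons, with 5, 7 and 3 at an unadjusted p under 0.05, beside 10.8%, 17.2% and 15.3% of all genes. Their median log2 fold change was 0.03 in the triple knockout over wild type, -0.05 in the haploinsufficient group over wild type and -0.04 between the GRK groups. Outside the members, the smallest p had Id2, a transcription regulator gene, in the triple knockout over wild type (-0.33, edgeR adjusted p = 0.170) and Jag1, a Notch ligand gene, in the haploinsufficient group over wild type (-0.39, edgeR adjusted p = 0.112). Between the GRK groups 0 genes of these 5 lists were called.

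Markers of the cell types of the heart were counted in the same fit. Of 10 cardiomyocyte and 8 epicardial markers, 0 were called in either GRK group against wild type. Of 9 cushion and valve mesenchyme markers 1 fell in the triple knockout (Col2a1), and of 6 smooth muscle and outflow tract markers 1 fell there (Tagln), with 0 called in the haploinsufficient group. Of 6 neural crest, neuronal and glial markers 1 rose in the triple knockout (Gap43), and of 6 macrophage markers 1 rose there (Mrc1), again with 0 called in the haploinsufficient group.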

How the data were processed

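Heart RNA was sequenced after ribosomal RNA removal, in 23 single-end libraries that do not mark strand, per the labels' protocols. Reads were aligned to mm10 with TopHat2 2.0.10 and Bowtie2, counted with HTSeq and also quantified with Cufflinks 2.1, per the submitters' processing notes. The authors deposited raw read counts per gene and FPKM values per gene, with the gene models used here for positions and exon lengths. The members, gene lists and tests were chosen with earlier results of these data known. Counts were scaled by TMM and tested with edgeR 4.0.16 (R 4.3.3) by its quasi-likelihood test over all 23 libraries, with group and ID set (IDs 1 to 12 or 19 to 30) as terms. Genes were kept by filterByExpr at a minimum count of 10 and total of 15, and p-values were adjusted by Benjamini-Hochberg over 13941 genes, without the targeted genes, Nkx2-5 and Cre. The standard error is the log2 fold change over the root of its F value. CPM used the scaled totals, and the score of neighbouring tissue is the mean log2 CPM (prior count 1) of its markers, relative to wild type. The method was tested on simulated data. Alternatives were DESeq2 1.42.0, limma 3.58.1 on log2(FPKM + 0.1) or log2(FPKM + 1) of the deposited FPKM, other scalings, filters and terms, and each library left out. Called members were to be described in full, members with an unadjusted p under 0.05 or the highest level of their family with values, and the rest by range. From the other lists the called genes, or else up to 4 with the smallest p, could be named. Within a group no library was a duplicate of another, with a chi-square per degree of freedom of at least 5.20. Libraries of different groups were not compared in this way. Intervals and limits from counts cover counting error only.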

Additional observations from a re-analysis of the deposited data

Results flagged for a closer look

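In 12 of 132 groups of libraries, 1 for each tested gene and genotype, the highest or lowest library stood far from the nearest other by Dixon's test at 95%, and chance gives about 1 in 20. The values are in CPM, and the cause was not tested in any of them. Among haploinsufficient hearts, replicate 3 was highest for Fzd5 at 25.1 (next 18.3), replicate 2 lowest for Rspo1 at 1.17 (next 5.75) and Dvl2 at 24.5 (next 42.8), and replicate 4 lowest for Rspo3 at 4.21 (next 9.09). Haploinsufficient replicate 2 was the shallowest library, and its Rspo1 value rests on 2 reads. Among triple-knockout hearts, replicate 7 was lowest for Sfrp1 at 175 (next 229.6). Among wild-type hearts, replicate 3 was lowest for Fzd4 at 8.95 (next 17.7), Lrp6 at 84.7 (next 123) and Tcf7l1 at 3.80 (next 6.47). Wild-type replicate 7 was lowest for Wnt5b at 5.54 (next 10.5) and Nkd2 at 2.87 (next 7.73). Wild-type replicate 6 was lowest for Dkk1 at 0.537 (next 1.29), on 6 reads, and replicate 4 was highest for Wif1 at 6.43 (next 3.61).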

How the results depend on the processing

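Of the members, 0 were called in the triple knockout over wild type, 1 in the haploinsufficient group over wild type and 0 between the GRK groups. In the first comparison DESeq2 called 2 (Fzd8 and Nkd1), upper quartile scaling 1 (Fzd8), no filter 1 (Fzd8), the compared groups alone 2 (Fzd8 and Nkd1), the fit without libraries of high neighbouring-tissue score 1 (Sfrp2), and that score as a term 2 (Sfrp1 and Wif1). In the second, DESeq2 called 2 (Fzd8 and Nkd1), each ID set alone 0, the compared groups alone 2 (Fzd8 and Sfrp2) and the score term 2 (Sfrp2 and Wif1). In the third, ID set A alone called 1 (Sfrp2). With each library left out in turn the counts ran from 0 to 2, from 1 to 3 and from 0 to 1. Signs turned without the high-score libraries for Dkk2 (-0.48) and Rspo2 (-0.44) in the triple knockout over wild type, Rspo2 (-0.48) in the haploinsufficient group, and Dkk2 (-0.69), Lrp6 (-0.24) and Tcf7l2 (-0.063) between the GRK groups. With the score as a term they turned for Rspo2 (-0.67 and -1.07) and for Gpc4 in the triple knockout (0.0092). The cause was not tested. Rspo2 in the haploinsufficient group had no value in the fit of the compared groups alone, where the filter left it out. Correlations between same-numbered libraries, of their deviations from the group means, ran from -0.20 to 0.13, -0.16 to 0.13 and -0.05 to 0.47. They were over 0.1 for 1 of 7, 1 of 8 and 3 of 7 pairs, and the highest was that of replicate 7 between the GRK groups. Whether the replicate numbers pair some libraries is therefore not settled. With the replicate number as a block the members called were 0, 1 and 0, with Fzd8 at -0.61 (edgeR adjusted p = 0.0836) and -0.70 (edgeR adjusted p = 0.0234), and over all genes 146, 219 and 16 were called, beside 165, 312 and 55. DESeq2 called 284, 561 and 253 of all genes, ID set A alone 50, 20 and 176, ID set B alone 51, 179 and 1, the compared groups alone 296, 246 and 1, the fit without high-score libraries 107, 128 and 0, and the score term 189, 167 and 160. Without a filter 88 were called between the GRK groups, and limma called 0 there. Without haploinsufficient replicate 3 the calls over all genes were 614 and 420 in the haploinsufficient group over wild type and between the GRK groups. The count over wild type was 163, 195, 192, 201 and 152 without wild-type replicates 1, 2, 6, 7 and 8, and 186, 187 and 182 without haploinsufficient replicates 1, 7 and 8. The count between the GRK groups was 13, 23, 30, 16 and 15 without haploinsufficient replicates 1, 2, 4, 7 and 8, and 16, 11, 10, 93, 27 and 25 without triple-knockout replicates 1, 2, 3, 5, 6 and 7. Wnt6 and Sfrp4, which the filter leaves out, were both tested in the fit without a filter and were not called there. Depth limits low genes such as Wif1, which had 0 to 39 reads in a library.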
